A study of Mus musculus with 10 samples.

Results

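The genes described here are 37 genes of the sensory hair cell, chosen by name for their part in the hair bundle, in the synapse or in the control of hair cell fate. Of these, 35 were rows of the deposited table of 15472 genes, and Tmc2 and Ush1g were not analysed here. RNA came from inner ears of mouse embryos of the C57BL/6 strain at E16.5 (embryonic day), in 5 samples of the wild type (WT, +/+) and 5 homozygous for the nmf219 allele of Tbx1 (nmf219/nmf219). Tbx1 encodes a T-box transcription factor of the otic vesicle and the mesenchyme around it. The allele is carried in the germ line, so every tissue of the mutant ears had it. Each library was made from 1 µg of total RNA, no cell sort is stated, and hair cells are a small part of this tissue.

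Hair cells turn movement of the hair bundle, a staircase of actin-filled stereocilia on their upper surface, into release of glutamate at ribbon synapses. Transcription factors such as Atoh1 and Pou4f3 come on first, the myosins and links of the bundle follow, and proteins of transduction and of the synapse rise towards birth and after it. At the age studied, vestibular hair cells are ahead of those of the cochlea, where differentiation is still moving along the duct. Hbb-y encodes the embryonic beta-like globin of primitive red cells, which give way to red cells from the fetal liver, so its RNA falls with age. It was used here as an index of maturity. Whether it tracks the age of these embryos was not tested.

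Library depth, as reads over listed genes, ran from 31244799 to 41875972. Counts of any pair within a genotype had a chi-square of 7.93 to 61.1 for each degree of freedom, so none repeated another. Tbx1 was at 20.7 to 29.3 among WT ears and 23.0 to 28.1 in nmf219 (log2 fold change 0.06, SE 0.10), so its RNA level does not check the labels. Xist was low in 3 WT libraries and high in the other 7, so sex was not balanced between genotypes. Nothing in the labels says that replicates came from separate animals or litters, and p-values therefore measure the spread between these samples. The defining hair cell markers were detected in every library. The lowest was Myo3a, with 2 reads in WT replicate 4. Fewer hair cells and less RNA per hair cell cannot be told apart in bulk tissue, and this holds for every result below. The descriptions number the samples from 2162 to 2169 or from 2199 to 2208. Either range includes WT and nmf219, and what the numbers stand for is not stated.

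Levels between genes were compared as normalized value per kilobase of exon, averaged over the 10 libraries. Myo6 was the highest at 11.3 per kilobase, followed by the transduction subunit gene Cib2 at 10.8 and the scaffold gene Ush1c at 8.95. Triobp (5.94), Stard10 (5.75) and Myo7a (5.15) came next. Several of these are also used by cells other than hair cells. Otof, the calcium sensor of vesicle fusion, was at 4.51 per kilobase and thus near Myo7a. Of the regulators, Pou4f3 was at 3.55, Atoh1 at 1.59, Gfi1 at 1.36, Lhx3 at 0.675 and Barhl1 at 0.539. The bottom of the order was held by Fscn2 at 0.420, Chrna9 at 0.253, Tmc1 at 0.164 and Myo3a at 0.0814.

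The comparison of nmf219 with WT asks whether the mutant ear holds a different amount of hair cell RNA. No hair cell gene was called. Over all genes limma called 13 (0.084%), 2 higher (0.0129%) and 11 lower (0.0711%), and 0 of 35 hair cell genes were among them, the lowest limma adjusted p being 0.624, for Xirp2. Limma-voom, edgeR and DESeq2 on the recovered reads also called 0 of 35. An unadjusted limma p under 0.05 was found for 3 of 35 (Xirp2, Cib2 and Cdh23), against 7.11% of all genes, and for 4, 2 and 3 with limma-voom, edgeR and DESeq2. The ranges of the genotypes overlapped for all 35, while 1.17% of all genes had separate ranges. In the mean, 32 of 35 were higher in nmf219, against 46.9% of all genes, with a median log2 fold change of 0.12 against -0.01 over the table. The exceptions were Lhx3 (-0.13), Clrn1 (-0.03) and Stard10 (-0.01). Fold changes are of value + 1, so those of genes with low values come out too small.

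The upward shift was small and varied with the libraries and terms used. Without WT replicate 4, which had the lowest level of most hair cell genes, the median was 0.06. Without WT replicate 5 it was 0.20, and leaving out any other library gave 0.09 to 0.19. Within description numbers 2162 to 2169 it was 0.03, and within 2199 to 2208 it was 0.16. With Hbb-y in the model the median was 0.01, and 18 of 35 were higher. An FDR under 0.05 was given to 2 of 35 by the authors' deposited table, against 3.26% of its genes. In the authors' deposited table Xirp2 had a log2 fold change of 1.00 and an FDR of 4.78e-14, and Myo3a 0.86 and 0.00475. The limma adjusted p was 0.624 for Xirp2 and 0.714 for Myo3a, and Myo3a had only 2 reads in WT replicate 4.

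**Figure D1:**
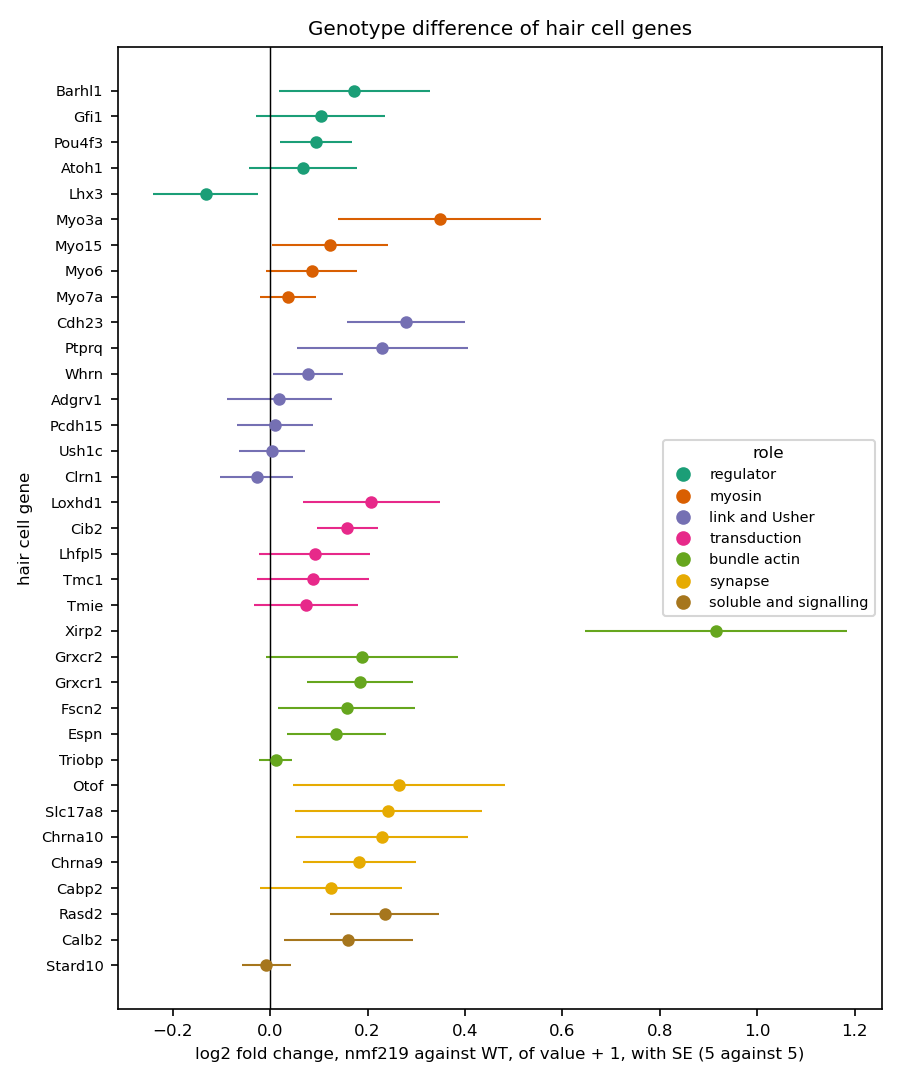
Log2 fold change of value + 1, nmf219 against WT, on the horizontal axis for each of 35 hair cell genes, grouped and coloured by role, with the standard error as bars (5 against 5 libraries). All but 3 genes lie to the right of 0, 0 passed limma's test over all genes, and Xirp2 stands apart at 0.92.

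Hair cell RNA differed between libraries along Hbb-y in the fit of all 10 libraries. In WT alone 7 of 35 hair cell genes and 1003 of all genes passed. In nmf219 alone, where only replicate 5 had high Hbb-y, 0 of 35 and 9 of all genes did. Values by library are given below in the order of replicates 1 to 5. Hbb-y was at 11.4, 15.8, 20.5, 44.4 and 3.10 across WT, then 6.15, 4.28, 3.66, 4.15 and 33.0 across nmf219. WT replicate 4 and nmf219 replicate 5 thus had the most, WT replicate 5 the least, and the genotypes overlapped (two-sided exact permutation test of log2(value + 1), p = 0.238, 5 against 5). A second embryonic globin, Hba-x, rose along it (slope 0.56, SE 0.05, limma adjusted p = 0.000482), while the adult-type Hbb-bs fell (slope -0.32, SE 0.09, limma adjusted p = 0.0381). The adult-type Hbb-bt (-0.20, SE 0.09, limma adjusted p = 0.146) and Hba-a1 (-0.28, SE 0.10, limma adjusted p = 0.0744) did not pass. Alas2, an erythroid gene that is not a globin, also fell (-0.33, SE 0.10, limma adjusted p = 0.0373). A slope here is the change in log2(value + 1) per unit of log2(Hbb-y + 1), about 1 doubling of Hbb-y, with genotype in the model. Of 35 hair cell genes, 19 (54.3%) passed limma's test over all genes as lower at high Hbb-y, where 9.64% of all genes did. As many as 18.9% of all genes passed in either direction, so many genes other than those of hair cells moved along the index. None of the 35 passed as higher, where 9.23% of all genes did. The slope was below 0 for 32 of 35, against 48.8% of all genes, with a median of -0.11 against 0.00 over the table. The exceptions, Whrn (0.04), Triobp (0.01) and Pcdh15 (0.00), did not pass.

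**Figure D2:**
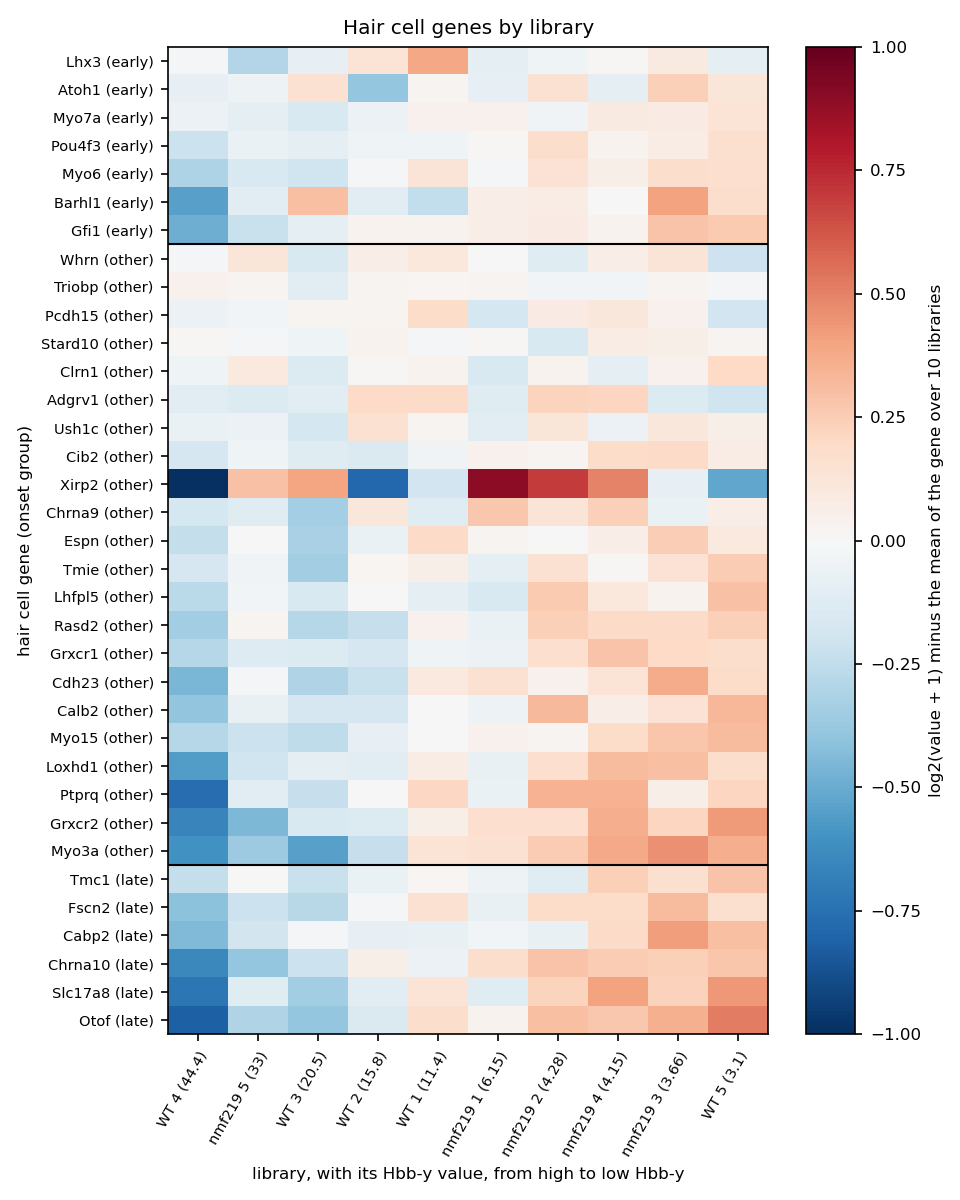
Each row is 1 of 35 hair cell genes (early, other and late onset, split by lines) and each column 1 of 10 libraries, ordered from high to low Hbb-y, whose value is in brackets. Colour is log2(value + 1) minus the mean of the gene over the 10 libraries, cut off at 1 in either direction. Most rows go from blue at the left to red at the right, with the steepest median slope among the late genes, while Xirp2 follows another order.

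The slope kept its sign within genotypes but its calls needed the extreme libraries. The median slope was -0.15 in the 5 WT libraries and -0.08 in the 5 nmf219 libraries, where nmf219 replicate 5 alone had high Hbb-y. It was -0.13 within description numbers 2162 to 2169 and -0.11 within 2199 to 2208. Within either range 0 of 35 and 0 of all genes passed. Hbb-y ranked 1, 2, 3, 5 and 8 of the 10 libraries (1 the highest) in 2199 to 2208. In 2162 to 2169 it ranked 4, 6, 7, 9 and 10, so index and range cannot be fully told apart. Slopes were below 0 for 30 of 35 genes in WT, for 32 in nmf219, and for 26 and 33 in the ranges of description numbers. A difference of slope between the genotypes was called for 0 of 35 (limma interaction term, also chosen after seeing the data, 2 at an unadjusted p under 0.05, against 5.46% of all genes). With all 10 libraries 19 of 35 hair cell genes and 2919 of 15471 genes passed. Without WT replicate 4, 8 of 35 passed, with 880 of all genes. Without WT replicate 5 only 5 of 35 passed, with 310 of all genes. The setting without both WT replicate 4 and nmf219 replicate 5 was chosen once the data had been seen. It gave 2 of 35 and 216 of all genes. In each of these the slopes of all 19 genes called over the 10 libraries stayed below 0. Those genes were picked by their slopes in the same libraries, so the kept sign is no independent support. With a term for the range of description numbers, 10 of 35 passed, with 1295 of all genes.

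Genes of other lists also passed along the same index, where 9.64% of all genes fell and 9.23% rose. All 16 cell cycle genes of a marker list rose with Hbb-y (median slope 0.14), with summed values of 1293 to 1915 in WT and 1360 to 1676 in nmf219. Of 17 supporting cell genes 6 fell and 1 rose (summed values 996 to 1168 in WT and 1055 to 1160.2 in nmf219). Among 15 ganglion neuron genes 1 fell and 3 rose (824 to 947 and 791 to 1000.2). The 1 supporting cell gene that rose and the 1 ganglion neuron gene that fell made up smaller shares than over all genes. Erythroid genes, Hbb-y included, summed to 2589 to 9719 in WT and 4994 to 7698 in nmf219, with the lowest sum in WT replicate 4 and the highest in WT replicate 5. No gene of these lists was at 0 in any library. The part of these cell types in the hair cell result was not tested. Read depth was 41875972 in WT replicate 4 and 32348622 in WT replicate 5.

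**Figure D3:**
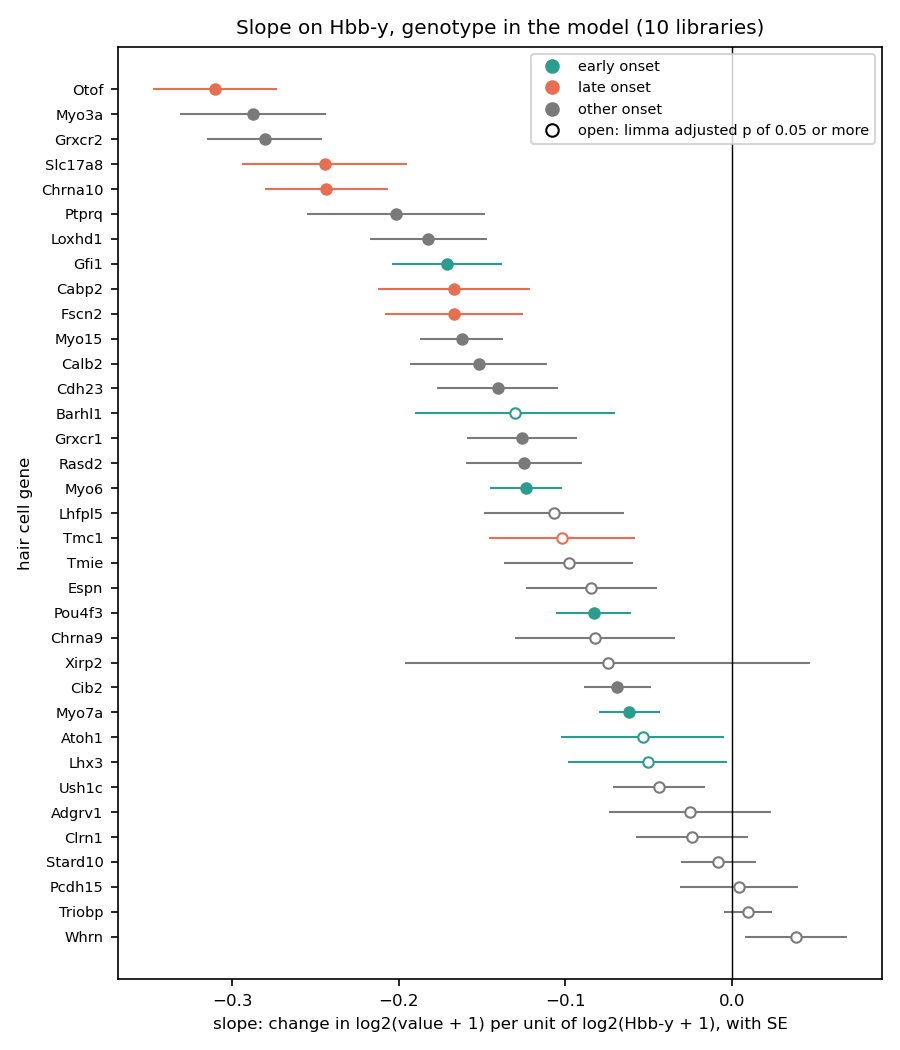
Slope of each of 35 hair cell genes on Hbb-y with its standard error (10 libraries, genotype in the model), coloured by onset group; filled points have a limma adjusted p under 0.05. Otof is first at -0.31 on this scale of value + 1, whereas with a pseudocount of 0.1 Myo3a (-0.72), Grxcr2 (-0.44), Chrna10 (-0.39) and Fscn2 (-0.31) are steeper than Otof (-0.29). The last 3 genes, Pcdh15, Triobp and Whrn, lie at or above 0.

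Of 5 regulators, Gfi1 and Pou4f3 fell with rising Hbb-y, and Atoh1, Lhx3 and Barhl1 did not pass. Gfi1, a zinc finger repressor needed for hair cell survival, was at 4.41, 4.42, 3.93, 2.77 and 5.34 across WT, then 4.55, 4.60, 5.46, 4.43 and 3.54 across nmf219. The lowest library of each genotype was the one with the most Hbb-y, and the slope was -0.17 (SE 0.03, limma adjusted p = 0.00751). Pou4f3, a POU factor needed for hair cells to mature, was at 8.20, 8.18, 7.90, 7.16 and 9.62 among WT ears, then 8.58, 9.70, 9.01, 8.70 and 8.06 in nmf219. Its range was narrow, with a slope of -0.08 (SE 0.02, limma adjusted p = 0.0277). Barhl1, a homeobox gene of hair cell upkeep, had the largest log2 fold change of the group at 0.17 (SE 0.16), from 1.58, 1.82, 2.76, 1.10 and 2.45 in WT to 2.20, 2.23, 3.04, 2.06 and 1.82 in nmf219. Its slope on Hbb-y was -0.13 (SE 0.06, limma adjusted p = 0.150). Atoh1, the first factor of the lineage, had a slope of -0.05 (SE 0.05) and the LIM homeobox gene Lhx3 of -0.05 (SE 0.05). The differences between these slopes were not tested.

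All 4 unconventional myosins fell as Hbb-y rose, Myo7a least steeply. Myo7a, the motor that anchors the tip link complex, was at 45.3, 42.2, 39.5, 42.3 and 48.6 across WT, then 45.5, 42.9, 46.8, 46.9 and 41.3 across nmf219, a slope of -0.06 (SE 0.02, limma adjusted p = 0.0368). Myo6, a motor of the bundle's base, was at 149, 135, 119, 109.9 and 153 among WT ears, then 135, 151, 154, 141 and 123 in nmf219 (slope -0.12, SE 0.02, limma adjusted p = 0.00499). Between WT replicates 5 and 4 these genes differed by 1.15-fold and 1.39-fold. Myo15, which carries whirlin to stereocilia tips, was at 14.3, 13.5, 11.8, 11.6 and 18.1 among WT ears, then 14.8, 14.6, 17.5, 16.4 and 12.2 in nmf219 (slope -0.16, SE 0.02, limma adjusted p = 0.00287). Myo3a, a tip motor that carries espins, was the rarest at 0.755, 0.358, 0.0952, 0.0477 and 1.05 in WT and 0.772, 0.895, 1.18, 1.07 and 0.238 in nmf219. The lowest of these values stand for 2 reads in WT replicate 4 and 3 in WT replicate 3. Its slope was -0.29 (SE 0.04, limma adjusted p = 0.00280), and its fold change between genotypes of 0.35 (SE 0.21) did not pass.

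The promoters of these myosins are shown because the genes moved together along the index. RefSeq's promoter table (GRCm38.p6) had 1 start each for Myo3a (chromosome 2, 22227253 to 22227502, + strand), Myo15 (chromosome 11, 60469089 to 60469338, + strand) and Myo6 (chromosome 9, 80164784 to 80165033, + strand), and 2 for Myo7a, which is not printed. The 250 bases before the start are given 5′ to 3′, with matches to the E-box CANNTG, the kind of site bound by basic helix-loop-helix factors such as Atoh1, in capitals. CANNTG is its own reverse complement, so 1 search covers both strands.
Myo3a: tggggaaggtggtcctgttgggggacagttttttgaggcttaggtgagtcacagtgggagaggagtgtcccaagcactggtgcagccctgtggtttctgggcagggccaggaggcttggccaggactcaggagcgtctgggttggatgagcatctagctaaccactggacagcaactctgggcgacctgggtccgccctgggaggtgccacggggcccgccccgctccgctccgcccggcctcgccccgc
Myo15: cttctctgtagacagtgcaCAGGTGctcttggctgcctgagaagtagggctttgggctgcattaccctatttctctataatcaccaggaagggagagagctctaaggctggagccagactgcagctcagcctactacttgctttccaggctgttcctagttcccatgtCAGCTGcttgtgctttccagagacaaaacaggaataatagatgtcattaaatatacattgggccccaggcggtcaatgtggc
Myo6: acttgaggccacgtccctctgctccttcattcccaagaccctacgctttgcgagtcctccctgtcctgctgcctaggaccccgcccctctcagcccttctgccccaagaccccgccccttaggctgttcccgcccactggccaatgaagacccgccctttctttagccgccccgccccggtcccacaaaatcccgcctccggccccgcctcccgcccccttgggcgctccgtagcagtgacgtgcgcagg
Myo15 held 2 such matches, 1 of them CAGCTG, and Myo3a and Myo6 held 0. CANNTG was present in 66.2% of 32851 promoter windows of this length, and CAGCTG, which is a form of it, in 13.0%. For hair cell genes, 38 windows were counted, from 29 of the 35 genes. Of these 38 windows, 27 held CANNTG (71.1%) and 8 held CAGCTG (21.1%). The remaining hair cell genes are not covered by these shares, which therefore do not stand for the whole list. The difference from all windows was not tested. GC content was 66.0% in Myo3a, 49.6% in Myo15 and 67.6% in Myo6.

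Link and Usher genes split into those that moved with Hbb-y and those that did not. Of 7 measured, Cdh23 and Ptprq fell. Cdh23, the upper part of the tip link, was at 13.4, 10.6, 9.93, 8.81 and 14.3 across WT, then 14, 12.8, 16.4, 13.8 and 12.4 across nmf219. Its slope was -0.14 (SE 0.04, limma adjusted p = 0.0226) and its log2 fold change, the largest of the group, 0.28 (SE 0.12, limma adjusted p = 0.680). The gene model of Vsir lies on the other strand within Cdh23, and whether reads were counted by strand is not given in the sources used here. Ptprq, a phosphatase of the shaft connectors between stereocilia, was at 19.8, 16.9, 14.3, 9.57 and 19.8 among WT ears, then 16.2, 21.8, 17.7, 21.8 and 15.7 in nmf219, with a slope of -0.20 (SE 0.05, limma adjusted p = 0.0256). Pcdh15, the lower part of the tip link, had a slope of 0.00 (SE 0.04), unlike its partner Cdh23, although the difference between their slopes was not tested. Ush1c, the harmonin scaffold and the most abundant of the group per kilobase, was at 35.0, 38.2, 30.3, 32.7 and 35.9 among WT ears, then 31.7, 37.4, 37.4, 33.0 and 32.9 in nmf219, a slope of -0.04 (SE 0.03). The membrane protein gene Clrn1 (-0.02), the ankle link receptor gene Adgrv1 (-0.03) and the scaffold gene Whrn (0.04) did not pass either.

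Of 5 genes of the transduction complex, 2 fell with rising Hbb-y. Loxhd1, needed for transduction in maturing hair cells, was at 9.10, 7.88, 8.0, 5.54 and 9.87 across WT, then 8.15, 9.80, 10.9, 11 and 7.40 across nmf219. The slope was -0.18 (SE 0.03, limma adjusted p = 0.00727), and its genotype difference of 0.21 (SE 0.14) was the largest of the group. Cib2, a calcium-binding subunit also used outside the ear, was at 15.0, 13.8, 14.1, 13.6 and 16.2 among WT ears, then 15.9, 15.7, 17.7, 17.6 and 14.9 in nmf219. It showed a slope of -0.07 (SE 0.02, limma adjusted p = 0.0353) and a genotype difference of 0.16 on the log2 scale (SE 0.06, limma adjusted p = 0.680, two-sided exact permutation p = 0.0556). Tmc1, the pore-forming subunit, ranged from 0.835 to 1.64 over the 10 libraries, with a slope of -0.10 (SE 0.04, limma adjusted p = 0.126). The subunit genes Lhfpl5 (-0.11, SE 0.04) and Tmie (-0.10, SE 0.04) did not pass. Tmie overlaps Als2cl, on the other strand, by 244 bases.

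Of 6 bundle actin genes, 3 fell with rising Hbb-y. Grxcr2 and Grxcr1, glutaredoxin-like proteins of stereocilia, both fell with rising Hbb-y. Grxcr2 was at 1.51, 1.19, 1.17, 0.525 and 2.23 across WT, then 1.72, 1.72, 1.80, 2.11 and 0.766 across nmf219, a slope of -0.28 (SE 0.03, limma adjusted p = 0.00225). Grxcr1 was at 1.63, 1.40, 1.46, 1.22 and 2.05 among WT ears, then 1.60, 2.03, 2.10, 2.29 and 1.48 in nmf219 (slope -0.13, SE 0.03, limma adjusted p = 0.0244). For both, WT replicate 4 was the lowest library of WT and nmf219 replicate 5 the lowest of nmf219. Fscn2, an actin cross-linker of mature bundles, was at 1.07, 0.836, 0.539, 0.406 and 1.09 among WT ears, then 0.772, 1.11, 1.32, 1.12 and 0.608 in nmf219 (slope -0.17, SE 0.04, limma adjusted p = 0.0198). The actin bundler gene Espn had a slope of -0.08 (SE 0.04) and did not pass. Triobp, which builds the rootlets of stereocilia and has broadly used isoforms, was at 74.0, 74.7, 68.0, 75.3 and 72.3 among WT ears, then 74.5, 71.6, 74.6, 71.7 and 74.7 in nmf219, with a slope of 0.01 (SE 0.01).

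Xirp2, an actin-binding protein of stereocilia and of striated muscle, had the largest genotype difference of the 35. Its values were 5.14, 3.07, 8.25, 2.08 and 3.91 across WT and 12.0, 10.4, 5.62, 8.90 and 7.58 across nmf219. All but WT replicate 3 lay below all nmf219 libraries. The log2 fold change was 0.92 (SE 0.27, limma adjusted p = 0.624, two-sided exact permutation p = 0.0238). The 17 skeletal muscle genes, of which 0 were at 0 in any library, summed to 169 to 2650.4 in WT and 1057 to 4334 in nmf219. In Xirp2 and in the muscle sum alike, WT replicate 4 was lowest, nmf219 replicate 1 highest and WT replicate 3 highest of WT. With the mean of the muscle list in the model the log2 fold change of Xirp2 was 0.22, and without WT replicate 3 it was 1.13 (limma adjusted p = 0.126). Its slope on Hbb-y was -0.07 (SE 0.12).

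**Figure D4:**
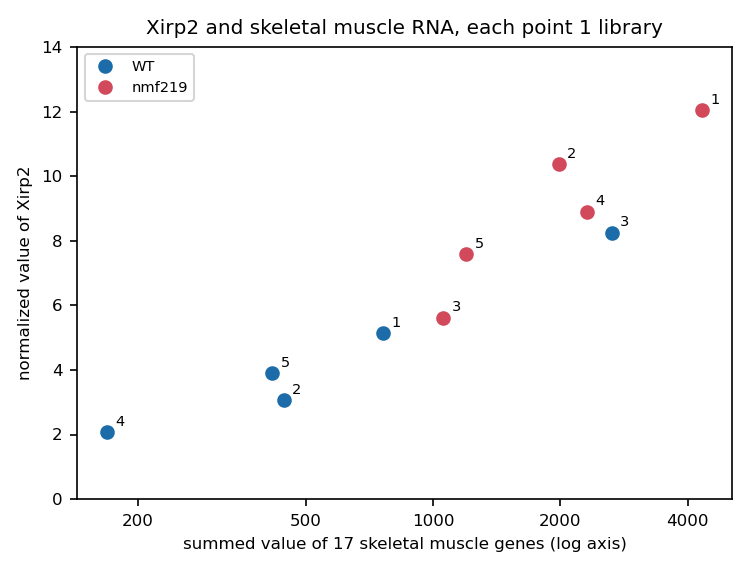
Normalized value of Xirp2 against the summed value of 17 skeletal muscle genes (log axis), 1 point for each of 10 libraries, numbered by replicate. WT replicate 4 is at the lower left (2.08 and 169) and nmf219 replicate 1 at the upper right (12.0 and 4334), and WT replicate 3 lies among the nmf219 libraries.

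Of 5 synapse genes, 4 fell with rising Hbb-y, and the median slope was -0.24. Otof (ENSMUSG00000062372, which the deposited table places on chromosome 5 from 30367062 to 30461932) was at 39.0, 31.1, 26.1, 19.1 and 49.5 across WT, then 35.3, 42.7, 44.3, 41.7 and 27.7 across nmf219. WT replicate 5 held 2.59 times the level of WT replicate 4, and nmf219 replicate 4 held 1.51 times that of nmf219 replicate 5. The slope was -0.31 (SE 0.04, limma adjusted p = 0.00215). It was -0.39 in WT and -0.22 in nmf219, and the interaction term of the limma model over all genes had a limma adjusted p of 0.883. Otof averaged 33.0 ± 11.8 over WT and 38.4 ± 6.87 over nmf219 (SD, n = 5 each). The log2 fold change was 0.26, with SE 0.22 and limma adjusted p = 0.768.

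Slc17a8, which encodes the vesicular glutamate transporter VGLUT3, was at 6.86, 5.67, 4.63, 3.34 and 8.66 across WT, then 5.58, 7.36, 7.42, 8.44 and 5.57 across nmf219 (slope -0.24, SE 0.05, limma adjusted p = 0.00887). It followed Otof in WT, also with a ratio of 2.59 between WT replicates 5 and 4. Cabp2, a calcium-binding modulator of the presynaptic calcium channel, was at 0.998, 0.985, 1.08, 0.549 and 1.58 among WT ears, then 1.06, 0.992, 1.80, 1.40 and 0.845 in nmf219, with a slope of -0.17 (SE 0.05, limma adjusted p = 0.0284). Chrna10, a subunit of the receptor through which efferent fibres act on hair cells, was at 1.22, 1.40, 0.984, 0.477 and 1.80 among WT ears, then 1.60, 1.81, 1.72, 1.75 and 0.766 in nmf219. Its slope was -0.24 (SE 0.04, limma adjusted p = 0.00280), but Art1, on the other strand, overlaps it over 2668 bases at a mean value of 1.97, and whether reads in the overlap were told apart by strand is not given. Its partner Chrna9, at 0.381 to 1.12 over the libraries, had a slope of -0.08 (SE 0.05) and did not pass.

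**Figure D5:**
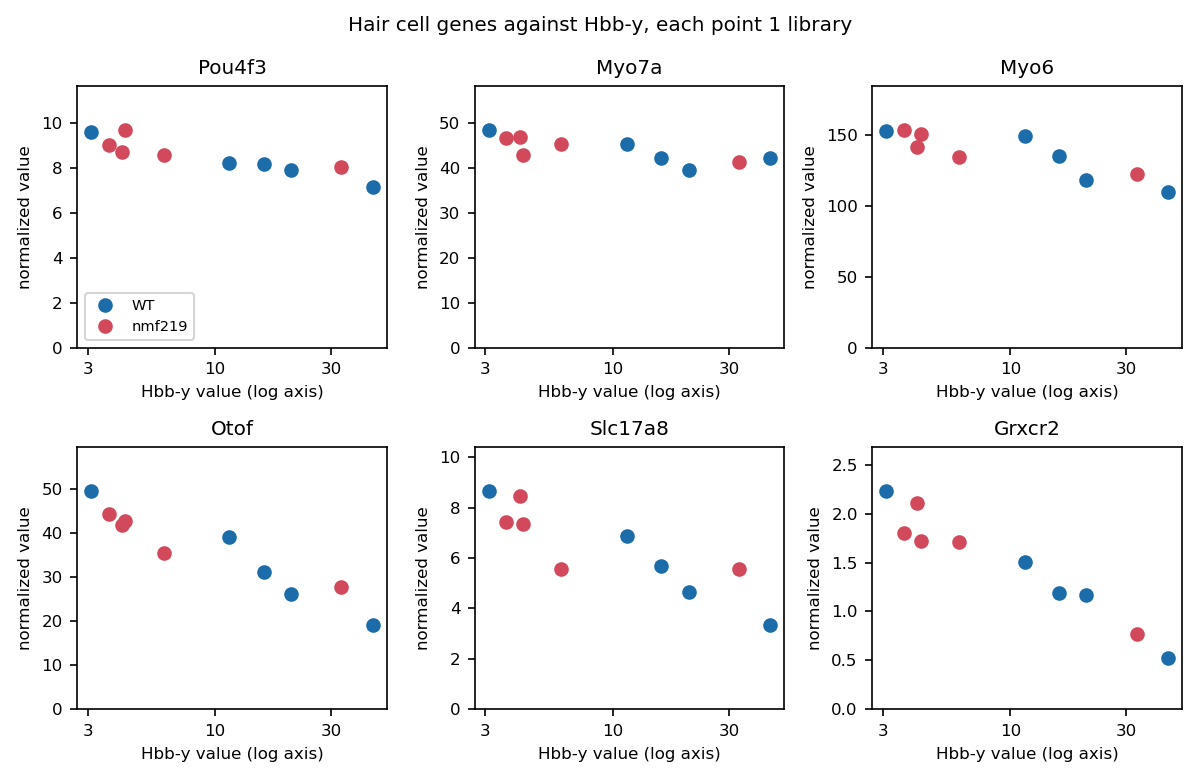
Normalized values of 6 hair cell genes against Hbb-y (log axis), 1 point per library, WT in blue and nmf219 in red, with vertical axes from 0. Pou4f3, Myo7a and Myo6 in the upper row fall little from left to right, and Otof, Slc17a8 and Grxcr2 in the lower row fall more steeply, with the points of both genotypes mixed.

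Among the soluble and signalling genes, Calb2 and Rasd2 fell with rising Hbb-y and Stard10 did not. Calb2, the calcium buffer calretinin, which ganglion neurons also make, was at 1.19, 0.955, 0.952, 0.668 and 1.77 across WT, then 1.12, 1.74, 1.43, 1.30 and 1.08 across nmf219 (slope -0.15, SE 0.04, limma adjusted p = 0.0274). Rasd2, a small GTPase of the Ras family, was at 11.1, 8.98, 8.63, 8.23 and 12.8 among WT ears, then 10.2, 12.9, 12.4, 12.4 and 11 in nmf219 (slope -0.12, SE 0.03, limma adjusted p = 0.0305). The genotype difference of Rasd2 was 0.23 on the log2 scale (SE 0.11, limma adjusted p = 0.680). Stard10, a lipid transfer protein gene of many epithelia, was at 13.8, 14.3, 13.5, 14 and 14.2 among WT ears, then 14, 12.4, 14.5, 14.7 and 13.7 in nmf219, with a slope of -0.01 (SE 0.02).

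The median slope on Hbb-y was steeper over late hair cell genes than over early ones, a difference that was not tested. The early group was formed by Atoh1, Pou4f3, Gfi1, Lhx3, Barhl1, Myo7a and Myo6, and the late group by Tmc1, Otof, Slc17a8, Fscn2, Cabp2 and Chrna10, by order of onset known from hair cell development. Both groups were set with earlier results of these data known. The median slope was -0.21 over the 6 late genes and -0.08 over the 7 early genes. As lower at high Hbb-y, 5 of 6 and 4 of 7 passed, against 9.64% of all genes. Single genes of the groups overlapped. Otof, Slc17a8 and Chrna10 were steeper than all early genes, but early Gfi1 (-0.171) was steeper than late Tmc1 (-0.102), Fscn2 (-0.167) and Cabp2 (-0.167). Myo3a (-0.29) and Grxcr2 (-0.28), in neither group, were steeper than all late genes but Otof. The median was steeper for late genes also with smaller pseudocounts (-0.28 against -0.08 at 0.1). The late median was also the steeper within WT (-0.22 against -0.11), within nmf219 (-0.15 against -0.10) and within each range of description numbers (-0.20 against -0.11 and -0.23 against -0.09). These are subsets of the same 10 libraries and no independent support, and in nmf219 only replicate 5 had high Hbb-y. In WT the mean log2(value + 1) of the late genes was 1.95 ± 0.327, and in nmf219 it was 2.14 ± 0.203. The early genes averaged 3.34 ± 0.141 and 3.40 ± 0.122, all with SD over 5 libraries. The late minus early difference was -1.31, -1.32, -1.54, -1.62 and -1.13 across WT and -1.33, -1.27, -1.23, -1.08 and -1.38 across nmf219. It was lowest in WT replicate 4, WT replicate 3 and nmf219 replicate 5, which had the 3 highest values of Hbb-y. The genotypes overlapped, with a mean of -1.38 in WT and -1.26 in nmf219, a difference of 0.12 that was 0.06 without WT replicate 4 and 0.19 without WT replicate 5.

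The ratio of Otof to Myo7a, a pair chosen after their values were seen and therefore given with no test, sets a late gene against an early one. It was 0.860, 0.737, 0.660, 0.452 and 1.02 across WT and 0.777, 0.995, 0.946, 0.889 and 0.671 across nmf219. The ratio was lowest in WT replicate 4 and highest in WT replicate 5, and the genotypes overlapped.

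A further 58 hair cell gene names, among them some that other ear cells also use, gave 52 measured genes. With genotype 0 of 52 passed limma's test (6 at an unadjusted p under 0.05, against 7.11% of all genes). In nmf219 31 were higher (59.6%, against 46.9% of all genes), and the median log2 fold change was 0.07. With Hbb-y, 13 fell (25.0%, against 9.64% of all genes), 3 rose (against 9.23% of all genes) and the median slope was -0.06. The steepest were Ocm, the calcium buffer oncomodulin (-0.37, SE 0.05, limma adjusted p = 0.00254, with 0 reads in WT replicate 4), and the potassium channel gene Kcna10 (-0.27, SE 0.05, limma adjusted p = 0.00794). Pcp4, a calmodulin regulator (-0.21), the bundle genes Espnl (-0.15), Eps8l2 (-0.15) and Clic5 (-0.09), and the channel genes Kcnma1 (-0.16) and Cacna1d (-0.09) fell as well. So did Tomt (-0.15), the protease gene Tmprss3 (-0.15), the annexin gene Anxa4 (-0.10), Ccer2 (-0.10) and the epithelial cadherin gene Cdh1 (-0.15). The 3 that rose were Six2 (0.12), the early Notch-pathway gene Hes6 (0.06) and the radixin gene Rdx (0.04), and Six2 and Rdx are widely used by other cells. The highest log2 fold changes at a mean value of at least 1 were those of Lmod3 (0.99), Smpx (0.72) and Rbm24 (0.41), each also a gene of striated muscle, and the lowest those of Nhlh1 (-0.23), Insm1 (-0.18) and Six2 (-0.15). None of these 6 passed for genotype.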

How the data were processed

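RNA-seq of 5 WT and 5 nmf219 inner ears was deposited as 1 table of normalized signal per gene and library, whose column names speak of counts and CPM. In each column 100% of values were whole reads times 1 step (tolerance 0.01 read), and columns summed to 990643 to 1009217, so the authors had scaled the signal. Of 15472 genes, 15469 reached a value of 1 in at least 2 libraries. The authors' log2 fold changes, signed fold score, p-value and FDR stand in the deposited table, per the file headers. The sources used here do not give the strand setting, aligner, annotation or build. Both ends of 30 of 35 hair cell genes matched GENCODE M21 (GRCm38), which gave exon lengths.

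Members and gene lists were chosen with earlier results of these data known. The main test was limma 3.58.1 with trend on log2(value + 1) over 15472 genes, Benjamini-Hochberg adjusted, threshold 0.05, with genotype as the only term, or log2(Hbb-y + 1) with genotype over 15471 genes. Alternatives used edgeR 4.0.16, DESeq2 1.42.0 and limma-voom on recovered reads, other pseudocounts and scalings, covariates and left-out libraries. Values are printed by library for members past a test and, in each role, for the highest per kilobase and the largest fold change. The smallest exact p of 5 against 5 is 0.00794. Scripts were tested on simulated data. The value of 3 reads was 0.0716 to 0.0952 and covers counting error only.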

Additional observations from a re-analysis of the deposited data

Results flagged for a closer look

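Values that stood apart from the other 4 of their genotype by Dixon's criterion (gap over range above 0.71) were found in 3 of 78 groups of 5 libraries examined, where chance gives about 1 in 20. Hbb-y was at 33.0 in nmf219 replicate 5, against 3.66 to 6.15 in the other nmf219 libraries. Chrna10 was at 0.766 in the same library, against 1.60 to 1.81 in the others. Espn was at 5.81 in nmf219 replicate 3, against 4.73 to 5.01 in the others.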

How the results depend on the processing

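No hair cell gene passed for genotype under any alternative run. Over all genes 13 passed. The replicate block and the Xist covariate left 2 each, the muscle covariate 4, DESeq2 63, Hbb-y as a covariate 33, and the ranges of description numbers 1 and 2. Leaving out 1 library gave 7 to 18. For Hbb-y, 2919 genes and 19 hair cell genes passed. With the replicate block 1282 and 8 did, with a term for description numbers 1295 and 10, in WT alone 1003 and 7, in nmf219 alone 9 and 0, without WT replicate 4 and nmf219 replicate 5 (chosen after seeing the data) 216 and 2, and within either range of description numbers (likewise) 0 and 0. Leaving out 1 library gave 310 to 2805 genes and 5 to 19 hair cell genes, lowest without WT replicate 5 and next without WT replicate 4 (880 and 8). The 19 genes kept slopes below 0 wherever they were tested (17 under the filter on low values). They were picked by slope in these same libraries, so the kept sign is no independent support. Fewer libraries enter several of these fits, and the cause was not tested otherwise. Same-numbered samples were not treated as paired in the main tests. Their deviations from the genotype means correlated at 0.04, 0.14, -0.47, -0.27 and -0.48, which cannot show whether they shared a litter. No single-gene value reversed among those that passed, 142 were weaker and 2 stronger (Tmie and Barhl1, slope on Hbb-y). Bulk tissue, 5 libraries per genotype and low counts of genes such as Myo3a limit the precision.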
